A study of Mus musculus with 2 samples.

Results

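The albumin gene cluster on mouse chromosome 5 is described here in RNA of SV40 MES13, a mouse kidney line that the labels call mesangial, the contractile cell type that holds the glomerular capillaries together. The genes were taken by symbol and number 4 of the 54713 entries in the deposited table: Gc, Alb, Afp and Afm. They were chosen with their values in this contrast known, so those values are a description and carry no test. The control library (Lv_NC) came from untreated cells of wild-type genotype that had been infected with a control lentivirus. The other library (Lv_AI662270) came from untreated cells infected with a lentivirus that overexpresses the long noncoding RNA AI662270, which had 0 counts in the control and 241 in this library. The labels name Sox9, not AI662270, as the gene whose stable expression was checked. Both lines were selected as stable lines with 0.5 mg/ml puromycin and kept in 0.25 mg/ml puromycin with 10% serum. Whether a line was a clone or a pool, and what promoter drove the insert, is not given in the sources used here. With a single library on each side (1 per group), differences cannot be set against replicate spread, and a bracketed range is a 95% exact interval that covers counting error only.

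Albumin, encoded by Alb, is the main protein of blood plasma and carries fatty acids, hormones and drugs. Alpha-fetoprotein, encoded by Afp, takes a similar place in the fetus and is made in fetal liver and yolk sac. Afamin, encoded by Afm, binds vitamin E and carries Wnt proteins in solution. Gc encodes the vitamin D binding protein, which carries vitamin D metabolites in plasma and also binds actin monomers released from damaged cells. The genes arose by duplication and are expressed mainly in hepatocytes, where factors such as C/EBP and forkhead proteins bind near their start sites. In the kidney the carrier proteins are taken up from the filtrate by proximal tubule cells through the receptors megalin and cubilin.

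All 4 genes lie on chromosome 5 in build mm10, and each had the same start and end in the GENCODE M21 annotation. Gc (ENSMUSG00000035540) runs on the minus strand at chr5:89417522-89457898 and has 13 exons in its main transcript, which holds 476 codons. Alb (ENSMUSG00000029368) runs on the plus strand at chr5:90460897-90476602, with 15 exons and 608 codons. Afp (ENSMUSG00000054932) follows on the plus strand at chr5:90490737-90508907, with 15 exons and 605 codons. Afm (ENSMUSG00000029369), at chr5:90518932-90553543 on the plus strand, has 15 exons and 608 codons. Alb, Afp and Afm stand close together, with 14.1 kb between Alb and Afp and 10.02 kb between Afp and Afm, whereas 1003 kb separate Gc from Alb. The main transcripts of the 4 genes share no stretch of 20 bases in any pairing, so a read of that length or longer matches at most 1 of them without error. Afp overlaps the antisense gene Gm43449, which had 0 counts in both libraries, and Afm overlaps Gm42109, which had 0 counts in the control and 1 in the AI662270 library.

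The 160 bases before each RefSeq start site are shown because the 4 genes, which differ in level below, have a motif in common there. The sequences are from RefSeq in build GRCm38.p6, read 5′ to 3′ on the strand of the gene. Capitals mark GTTAATNAT, letters that were searched on both strands and chosen after the promoters had been seen.
Gc, chr5:89457899-89458058, minus strand: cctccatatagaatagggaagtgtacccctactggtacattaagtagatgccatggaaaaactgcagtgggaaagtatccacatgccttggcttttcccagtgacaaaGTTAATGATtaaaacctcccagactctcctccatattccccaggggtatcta
Alb, chr5:90460710-90460869, plus strand: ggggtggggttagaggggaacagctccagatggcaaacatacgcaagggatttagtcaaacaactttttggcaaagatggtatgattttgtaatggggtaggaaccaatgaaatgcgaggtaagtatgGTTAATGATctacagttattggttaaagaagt
Afp, chr5:90490554-90490713, plus strand: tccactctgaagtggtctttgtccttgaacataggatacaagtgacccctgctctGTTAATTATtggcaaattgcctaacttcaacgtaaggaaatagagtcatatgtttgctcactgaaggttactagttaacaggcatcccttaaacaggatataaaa
Afm, chr5:90518789-90518948, plus strand: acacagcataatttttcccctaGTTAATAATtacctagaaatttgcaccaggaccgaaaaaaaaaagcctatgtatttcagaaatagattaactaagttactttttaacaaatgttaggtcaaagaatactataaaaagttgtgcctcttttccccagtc

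Each of the 4 windows held the motif once, on the strand of the gene, and Gc and Alb had the same letters in it. The match began 52 bases before the RefSeq start in Gc, 32 bases before it in Alb, 105 in Afp and 138 in Afm. The letters of Gc and Alb, GTTAATGAT, also stood 48 bases before the RefSeq start of Albfm1, an albumin superfamily gene next to Afm. Albfm1 had 3 counts in each library, so these letters are not particular to the genes that were higher. Of 32851 windows of 250 bases before RefSeq starts, 0.737% held GTTAATNAT. Other motifs were less rare over all windows or were missing from some of the genes. TATAAA, the core of the TATA box, was found in the 250 bases of Afp and Afm but not of Gc and Alb, against 12.4% of all windows. CCAAT was found in all 4 genes and in 33.8% of all windows, and in Afp it overlaps the GTTAATNAT match. TGTTTGC, a core that forkhead proteins bind, was found in Alb and Afp and in 4.3% of all windows. A match is a description of letters and no evidence of binding. RefSeq and GENCODE place the starts of Alb, Afp and Afm at different bases, so distances hold for the RefSeq starts.

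Gc was by far the most abundant of the 4 genes. Its counts were 62 in the control and 1080 with AI662270. In CPM, which are counts scaled to library size, these are 4.08 (3.13 to 5.23) and 69.3 (65.2 to 73.6). Gc was thus detected in both lines, and its level was 16.997-fold higher with AI662270 (13.2 to 22.3). Among the 730 genes that were higher and had counts in the control library, 27 had a larger fold than Gc. By level per kilobase, Gc stood at rank 9493 of 14275 protein-coding genes with counts in the control library and at rank 1318 of 14891 in the AI662270 library. It moved from below the median gene, at 2.21 CPM per kb against 6.07, to above it, at 37.6 CPM per kb against 5.29.

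No read of Alb was counted in the control library, and a count of 0 allows up to 3 counts (0.197 CPM). With AI662270 it had 73 counts, a level of 4.69 CPM (3.67 to 5.89). Against the floor of 3 counts it was at least 23.7-fold higher, with a lower exact limit of 18.8 on the ratio. Alb was seen with AI662270 alone, at a level below that of the median protein-coding gene: 2.0005 CPM per kb, or rank 9799 of 14891. Of 34454 genes without a count in the control library, 3 had at least as many counts as Alb in the other library. These were Pcdh15, a protocadherin gene with 316 counts, the delivered transcript AI662270 with 241, and Alb itself, and they are named after their values were seen.

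Afp and Afm were at the limit of detection. Afp had 0 counts in the control and 2 in the AI662270 library, both under the floor of 3 counts, so no fold is given. Afm had 3 counts in each library, a ratio of 0.976 with an interval from 0.131 to 7.29. A change of either gene up to several fold was not detectable at this depth. The relative Albfm1, listed as 5830473C10Rik and next to Afm, also had 3 counts in each library. The close neighbours of Alb therefore had almost no reads in the library in which Alb had 73.

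**Figure D1:**
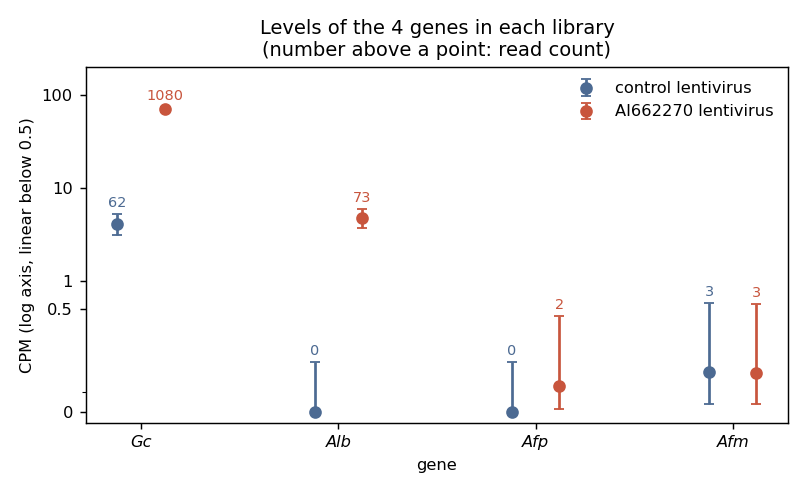
Level of each gene (CPM, log axis that is linear below 0.5) in the control library (blue) and the AI662270 library (red), with 95% exact counting intervals and the read count above each point. Gc goes from 62 to 1080 counts and Alb from 0 to 73, while Afp and Afm have 3 counts or fewer in each library.

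The order of the genes by level per kilobase was Gc, Alb, Afm and Afp with AI662270, at 37.6, 2.0005, 0.0634 and 0.0381 CPM per kb. Gc exceeded Alb 18.8 times on this scale in that library. The counts of Afm and Afp, 3 and 2, could not be told apart within counting error. In the control library Gc at 2.21 CPM per kb was followed by Afm at 0.065, and Alb and Afp had no counts.

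Genes averaging 1 CPM or more over both libraries were called measured. The size rule called a gene higher or lower where its log2 ratio, with 0.5 CPM added to each value, reached 1 or -1 and the interval of the fold did not include 1. Of the 4 genes, Gc and Alb were measured and both were higher, with log2 ratios of 3.93 and 3.37. Of all 13268 measured genes 5.59% were higher and 5.72% lower, and the median log2 ratio was -0.02. The genes had been chosen on this contrast, so nothing is read from that difference. In the authors' deposited table, which compares the same pair of libraries, the log2 fold changes were 4.08 for Gc, 9.17 for Alb, 4.07 for Afp and -0.03 for Afm. The value for Afp rests on 0 and 2 counts, both under the floor of 3, and is not read as a rise. The authors' adjusted p-values rest on the same 1 library per group, with no replicate spread behind them, and are not used here.

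**Figure D2:**
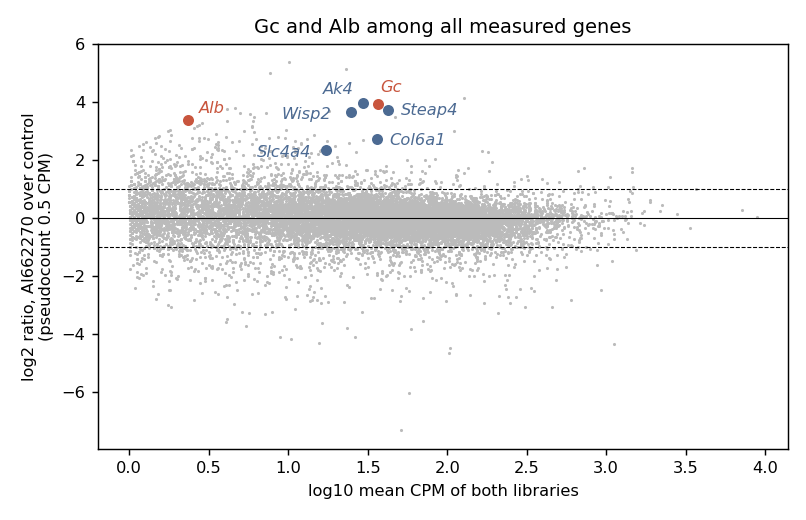
Log2 ratio of the AI662270 over the control library (0.5 CPM added) against log10 mean CPM for 13268 measured genes (grey), with Gc and Alb in red and named comparison genes in blue. Dashed lines mark a log2 ratio of 1 in either direction; Gc lies at 3.93 and Alb at 3.37.

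The genes most like Gc were sought among 4420 protein-coding genes with a mean level from 0.5 to 2 times that of Gc, by the difference in log2 ratio over the 2 libraries. Genes without a symbol or with a Gm or Rik symbol had been left out. Ak4, a mitochondrial adenylate kinase gene, was nearest with 47 and 870 counts and a difference of 0.041. Steap4, a metalloreductase gene that also lies on chromosome 5, had 84 and 1239 counts and differed by 0.199. Wisp2, a gene of the CCN family of matricellular proteins, had 48 and 719 counts and differed by 0.258. The next gene, the collagen VI gene Col6a1 with 139 and 979 counts, already differed by 1.22. Few of these 4420 genes thus had a ratio near that of Gc.

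The genes around the cluster were taken by position, from 1 Mb before the start of Gc to 1 Mb after the start of Afm. Of 54 such genes 29 are protein-coding and 18 were measured, of which 2 were higher and 2 lower, and 23 had no counts. Their median log2 ratio was 0.02, and that of all 898 measured genes of chromosome 5 was 0.11, with 62 higher and 46 lower. Slc4a4, which encodes a sodium bicarbonate cotransporter of the kidney tubule and ends 178 kb before Gc, went from 80 to 454 counts, 5.54-fold higher with AI662270 (4.36 to 7.11). It is the measured gene nearest to Gc on that side, and the following ones had log2 ratios of 0.49 for Dck and -0.09 for Mob1b.

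Between Gc and Alb lie Npffr2 and Adamts3, with 0 counts in both libraries, and the measured genes Cox18, Ankrd17 and Gm9958. Ankrd17, which encodes an ankyrin repeat protein, had 6946 and 7006 counts, with a log2 ratio of -0.02. Cox18, which serves the assembly of cytochrome oxidase, had 485 and 475 counts, with a log2 ratio of -0.06. Gm9958, the measured gene nearest to Alb on that side, had 14 and 20 counts, with a log2 ratio of 0.33. Of the 3 measured genes between Gc and Alb 0 were past the size rule, against 11.3% of all measured genes. With 3 genes that share allows a count of 0, and nothing is read from it. On the far side of Afm, the 3 nearest measured genes were Rassf6, Cxcl5 and Ppbp, with log2 ratios of -0.25, 1.24 and 0.61.

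**Figure D3:**
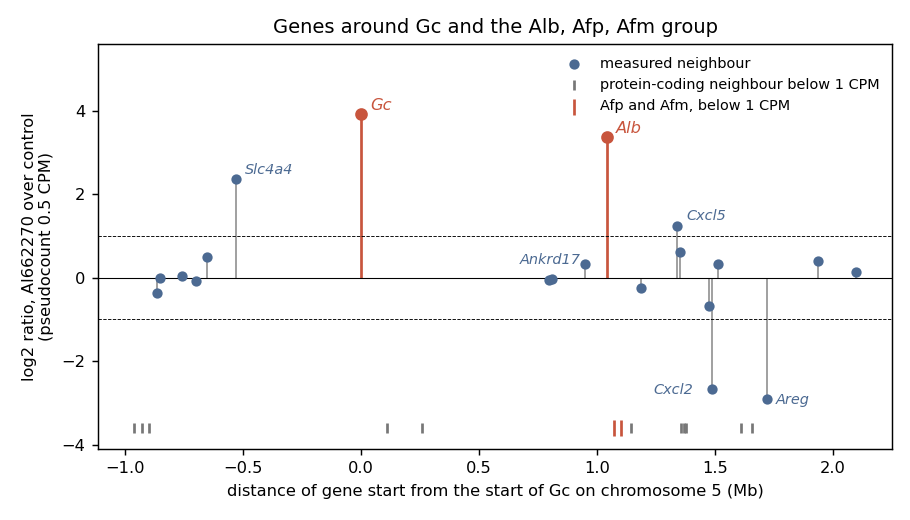
Log2 ratio of the AI662270 over the control library (0.5 CPM added) against the distance of each gene start from that of Gc on chromosome 5 (Mb), with measured neighbours in blue and Gc and Alb in red. Ticks at the bottom are protein-coding genes below 1 CPM, Afp and Afm in red; Slc4a4 is at 2.36 before Gc, and Ankrd17 between Gc and Alb is at -0.02.

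Alb and Gc are genes of hepatocytes, so 30 other genes of secreted liver proteins were examined. Of these, 5 were measured, 3 were higher and 0 lower, against 5.59% higher and 5.72% lower of all measured genes, with a median log2 ratio of 1.08. The higher ones were Orm1, which encodes an acute phase glycoprotein, Cp, which encodes the copper carrier ceruloplasmin, and Apoa2, an apolipoprotein gene. Orm1 and Apoa2 had 0.263 and 0.526 CPM in the control library. They counted as measured only through the AI662270 library, at 3.85 and 1.67 CPM. The number of higher genes and the median depend on that, and nothing is read from them. Orm1 went from 4 to 60 counts, 14.6-fold higher with AI662270 (5.43 to 55.5), and it has close copies that may share its reads. Cp went from 2382 to 5739 counts, 2.35-fold higher with AI662270 (2.24 to 2.47), and it overlaps Hps3. Apoa2 had 8 and 26 counts, a ratio of 3.17 (1.39 to 8.10), and did not pass with 2 CPM added, at a log2 ratio of 0.54. The complement gene C3 had 13442 and 18547 counts, with a log2 ratio of 0.43, and Fetub, which encodes fetuin B, had 43 and 25 counts and one of -0.66.

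Most of the list lay below the measured range and showed a one-sided pattern of few reads. In the control library 19 of the 30 genes had 0 counts, and 18 of those 19 (94.7%) had between 1 and 10 counts in the AI662270 library. Of 7771 protein-coding genes without counts in the control library, 14.5% had any count in the other. Apob, the scaffold of very low density lipoprotein, had 0 and 10 counts. Apoa1, Hp and Apoh had 0 and 5 counts each, and Ttr, Fga, Fgb, Serpina1a and Serpina1b had 0 and 4 each. In the opposite direction 1 of the 2 genes without counts in the AI662270 library, Itih1, had a count in the control. Of 7155 protein-coding genes without counts in the AI662270 library, 7.16% had any count in the control. Genes in this paragraph at 5 counts or fewer are no evidence singly, and they are named after their values were seen.

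Of 10 hepatocyte markers, of which 6 are also in the list above, 1 was measured and past the size rule, Apoa2. Of the 10, 1 was detected in the control and 9 in the AI662270 library, and their summed level was 0.526 and 3.21 CPM. Over all protein-coding genes, 14275 had counts in the control and 14891 in the AI662270 library. Of the 9 markers without control counts 8 (88.9%) had counts with AI662270, against 14.5% of all protein-coding genes without control counts. Hnf4a, a nuclear receptor gene that is also among the proximal tubule markers below, had 0 counts in both, and the most abundant marker with AI662270 was Apoa2 with 26 counts. In the AI662270 library the 10 markers summed to 50 counts, Alb had 73 and Gc had 1080. Whether RNA of hepatocytes, from whatever source, has a part in the Alb and Gc counts was not tested. Of 9 visceral endoderm and yolk sac markers, 4 were detected in the control and 6 in the AI662270 library. Of the 5 without control counts 2 (40%) had counts with AI662270, against the same 14.5%. They were Afp, itself a gene of the cluster, with 2 counts, and Ttr, also a hepatocyte marker, with 4. Nothing is therefore read from that share. Apoa4, Foxa2 and Sox17 were at 0 in both. In bulk RNA a few cells with much RNA and many cells with little cannot be told apart.

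**Figure D4:**
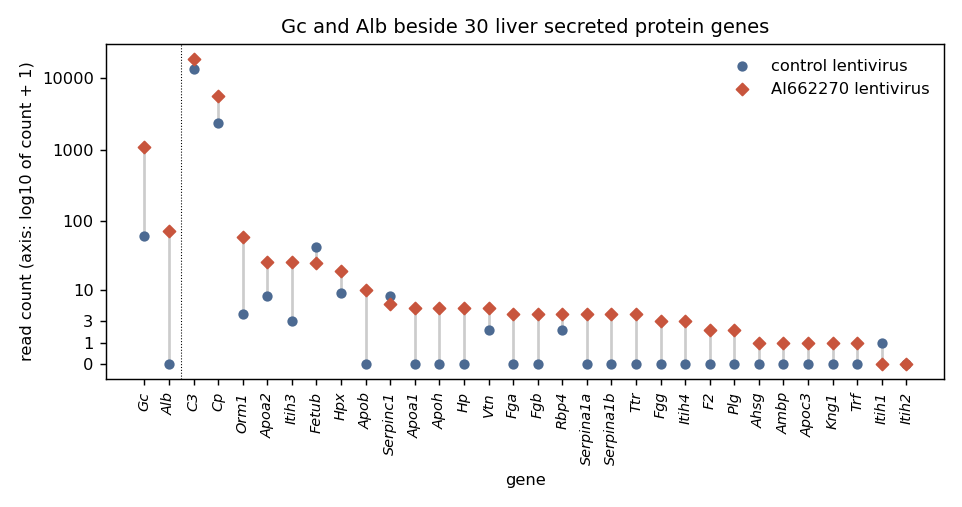
Read counts (axis is log10 of the count plus 1) of Gc, Alb and 30 liver secreted protein genes in the control library (blue circles) and the AI662270 library (red diamonds). Of the 19 listed genes without control counts, 18 have 1 to 10 counts with AI662270, fewer than the 73 of Alb and the 1080 of Gc.

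Transcription factors known for binding or restraining these genes in liver went both ways. Of 22 listed factors 15 were measured, 2 were higher and 3 lower, against 5.59% and 5.72% of all measured genes, with a median log2 ratio of 0.09. Nr5a2 and Foxa2 had 0 counts in both libraries.

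Cebpd, a C/EBP gene induced in the acute phase, went from 496 to 1284 counts, 2.53-fold higher with AI662270 (2.28 to 2.81). Dbp, named for its binding to the albumin promoter D site, had 29 and 69 counts, a ratio of 2.32 (1.48 to 3.72). Cebpb went from 1446 to 605 counts, 2.45-fold lower with AI662270 (2.23 to 2.70). Zhx2, a repressor of Afp in adult liver, went from 724 to 350 counts, 2.12-fold lower with AI662270 (1.86 to 2.42). Gata4 went from 302 to 149 counts, 2.08-fold lower with AI662270 (1.70 to 2.55). Zbtb20, which also represses Afp in liver, had 1408 and 1817 counts, with a log2 ratio of 0.33. Gata4 lay near the threshold and did not pass under 5 of the 8 alternatives, at log2 ratios from -0.98 to -0.89. Zhx2 did not pass with library totals, upper quartiles or FPKM, at -0.97, -0.9996 and -0.98, and Dbp did not pass with 2 CPM added or on FPKM, at 0.72 and 0.82. Cebpd, Cebpb and Dbp overlap genes on the opposite strand, and without strand their reads cannot be separated from these. Of 8 genes of fetal liver and yolk sac, 3 were measured and 1, the growth factor gene Igf2, was lower, against 5.72% of all measured genes. Igf2 counted as measured only through the control library, at 2.96 CPM, so nothing is read from that number. Igf2 had 45 and 0 counts, at least 15.4-fold lower against the floor of 3 counts, and it overlaps Igf2os with 27 and 0 counts. H19, Gpc3, Dlk1, Lin28b and Sall4 had 0 counts in both.

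The protein made from Gc serves the vitamin D system, and 6 of 13 genes of that system were measured. Of these 2 were higher and 1 lower, against 5.59% and 5.72% of all measured genes, with a median log2 ratio of 0.19. The lower gene, Cyp27b1, counted as measured only through the control library, at 2.89 CPM against 0.706 with AI662270. Nothing is read from these numbers or the median. Vdr, the nuclear receptor that binds active vitamin D, went from 204 to 588 counts (13.4 to 37.7 CPM), 2.81-fold higher with AI662270 (2.39 to 3.31). Pdia3, a disulfide isomerase of the endoplasmic reticulum that has also been described as a membrane receptor for vitamin D, went from 8058 to 17311 counts, 2.10-fold higher with AI662270 (2.04 to 2.15). Cyp27b1, the hydroxylase that makes active vitamin D in the kidney, went from 44 to 11 counts, 4.10-fold lower with AI662270 (2.08 to 8.80), but did not pass with 2 CPM added, at a log2 ratio of -0.85. The partner receptors Rxra and Rxrb had log2 ratios of 0.16 and -0.47. Cyp24a1, the hydroxylase that degrades vitamin D and a sensitive target of Vdr, had 2 and 0 counts. Cyp2r1, which makes the form that Gc carries, had 0 counts in both.

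The receptors for the carriers were examined as well. Of 8 genes for uptake and recycling of albumin and the vitamin D binding protein 7 were measured and 0 were past the size rule in either direction, against 11.3% of all measured genes, with a median log2 ratio of 0.07. With 7 genes that share allows a count of 0, and nothing is read from it. Lrp2, which encodes megalin, had 693 and 740 counts, with a log2 ratio of 0.06. Cubn, which encodes cubilin, had 33 and 73 counts, with a log2 ratio of 0.96, and it passed with library totals, at 1.04. Fcgrt, the receptor that recycles albumin, had 493 and 531 counts. The most abundant members were Sparc, which encodes an albumin-binding matrix glycoprotein, and Cav1, which encodes the coat protein of caveolae, with log2 ratios of 0.66 and 0.08. Lrp2, Cubn and Fcgrt are named after their values were seen. Gelsolin, encoded by Gsn, clears extracellular actin together with the vitamin D binding protein, and Gsn had 4524 and 4587 counts, with a log2 ratio of -0.02. The cytoplasmic actin genes Actb and Actg1 had log2 ratios of 0.08 and -0.41.

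The libraries held 15727023 counts in the control and 15062482 with AI662270. Of 10 mesangial markers 7 were detected in the control and 8 in the AI662270 library, with summed levels of 24.1 and 44.4 CPM. Pdgfrb had 185 and 338 counts, Itga8 and Thy1 were at 0 in both, and of 6 measured markers 1 was higher (Acta2, 12 and 171 counts) and 2 lower (Gata3, 76 and 25 counts, and Serpine2, 28 and 10). Of 7 proximal tubule markers 3 were measured, 0 higher and 1 lower (Aqp1, 232 and 64 counts), with summed levels of 63.01 and 56.5 CPM, and Slc34a1, Slc22a6 and Hnf4a were at 0 in both. Over all measured genes 5.59% were higher and 5.72% lower. With 6 and 3 measured markers, nothing is read from the numbers past the size rule.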

How the data were processed

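RNA of 1 control and 1 AI662270 library was sequenced. Per the submitters' processing notes, build mm10, TopHat2 and CASAVA 1.4 were used. How reads were counted, with which annotation and with or without strand, is not given in the sources used here. The authors deposited whole read counts per gene, used here as they stand; the control column is headed Lv_Con and was taken as Lv_NC, the only control sample. The deposited FPKM are counts per gene length over 15391166 in both libraries. The authors' log2 fold changes, per the file headers, are quoted as theirs, and their adjusted p-values were not used. Another 4 columns of rescaled values were not used.

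Counts were scaled with TMM in edgeR 4.0.16 (R 4.3.3), with factors of 0.967 and 1.03, and CPM, log2 ratios (0.5 CPM added) and exact Clopper-Pearson intervals at 95% were computed in Python 3.11.15 with scipy 1.17.1. With 1 library in each group there is no replicate spread, so no p-value was computed. The size rule was tested on simulated data. Reads carry no molecular identifiers, so intervals and the floor of 3 counts cover counting error only. Promoters of all 4 genes were found in the RefSeq table of build GRCm38.p6.

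The genes and lists were chosen with earlier results of these data known. Named were the cluster genes, the 3 nearest measured neighbours on each side and those between, up to 4 list members past the rule or else the 2 most abundant, factors and vitamin D genes, and the 4 genes nearest Gc in log2 ratio. Genes named beyond this rule were chosen after their values were seen. Some genes that the rule takes are not reported here. Alternatives were library totals, DESeq2 1.42.0 size factors, upper quartiles, 0.1 or 2 CPM added, a mean of 5 CPM or no filter, and FPKM.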

Additional observations from a re-analysis of the deposited data

How the results depend on the processing

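Gc was higher by the size rule under all 8 alternatives, with log2 ratios from 3.55 with 2 CPM added to 4.05 with 0.1 CPM added. Alb was higher under the 7 that kept it, but its log2 ratio, which is set by the value added to a count of 0, was 1.74 with 2 CPM added and 5.58 with 0.1 CPM added. A mean of at least 5 CPM leaves Alb out. Among all measured genes, 742 were higher, but 400 with 2 CPM added, 391 at a mean of at least 5 CPM and 486 on FPKM. Of the liver secreted genes 3 passed, but 5 without a filter and 1 at a mean of at least 5 CPM. Of the liver factors 5 passed, but 3 with 2 CPM added and 2 on FPKM. In the fetal list 1 gene passed, but 0 at a mean of at least 5 CPM. In the uptake list 0 passed, but 1 with library totals, 1 with upper quartiles and 1 with 0.1 CPM added; it was Cubn under library totals, upper quartiles and 0.1 CPM added. No result reversed. No paired analysis was possible because each group has 1 library, and for the same reason no library could be left out. Depth limits Afp and Afm, whose counts of 3 or fewer leave changes of several fold undetectable.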

Other observations

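Beyond Afm, chromosome 5 holds a run of chemokine and growth factor genes that differed among themselves. Cxcl5, a neutrophil-attracting chemokine gene, went from 4522 to 10978 counts, 2.37-fold higher with AI662270 (2.29 to 2.45). Cxcl2, a related chemokine gene further along, went from 3003 to 478 counts, 6.44-fold lower with AI662270 (5.84 to 7.11). Cxcl1 had 9630 and 6155 counts, with a log2 ratio of -0.68. Areg, which encodes the EGF receptor ligand amphiregulin, went from 485 to 60 counts, 8.28-fold lower with AI662270 (6.33 to 11.02). Genes along this stretch thus went both ways, Cxcl5 in the direction of Alb and Cxcl2 and Areg in the opposite one. These genes were named after their values were seen.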
